A study of Mus musculus with 8 samples.

Results

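The Eph receptors, ephrins, semaphorins and plexins were followed in whole mouse embryos at E9.0 that lack Arid3b, set against wild-type embryos. They are the genes whose probes carry an Eph receptor, ephrin, semaphorin (class 3 to 6) or plexin name in the array files. That rule found 85 of 41174 probes and 49 of 27671 genes, made up of 19 semaphorins, 8 ephrins, 14 Eph receptors and 8 plexins. Total RNA from 4 Arid3b-null pools and 4 wild-type pools, each of 3 to 4 whole embryos, was read on 1-colour arrays. The labels call the mutants null and do not give the strain, the allele, the sex or the litters. The spread behind each p-value is therefore that between these pools and may in part be technical. Arid3b encodes a nuclear factor that binds AT-rich DNA through its ARID domain, and the labels name no tissue to which its loss would be limited. In whole embryos, fewer cells of a type and less RNA per cell cannot be told apart.

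Ephrins and semaphorins are ligands that tell growing axons, migrating neural crest cells and sprouting vessels where to go. Ephrins are held on the cell surface, the A class by a lipid anchor and the B class by a transmembrane segment, and bind Eph receptor tyrosine kinases on the cells they touch. Semaphorins act through plexins, and the secreted class 3 members mostly need a neuropilin beside the plexin, while classes 4 to 6 are anchored in the membrane. In the embryo the system is best known for repelling axons, for holding rhombomere and somite boundaries, and for separating arteries from veins.

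The promoters of 5 ligand genes are shown because the results below turn on them. Sema4g and Sema6b were the called genes, and Efna1, Efna3 and Efna4 lie side by side on chromosome 3 and did not move the same way. Each sequence is the 250 bases before the outermost start of the gene in RefSeq (GRCm38.p6), read 5′ to 3′ on the strand of the gene. They come from chr19:44989094-44989343 (plus strand) for Sema4g, chr17:56140344-56140593 (minus) for Sema6b, chr3:89322940-89323189 (minus) for Efna3, chr3:89280952-89281201 (minus) for Efna1 and chr3:89338029-89338278 (minus) for Efna4. Capitals mark ACGTG or GCGTG on either strand, the core to which hypoxia-inducible factors are known to bind.
Sema4g: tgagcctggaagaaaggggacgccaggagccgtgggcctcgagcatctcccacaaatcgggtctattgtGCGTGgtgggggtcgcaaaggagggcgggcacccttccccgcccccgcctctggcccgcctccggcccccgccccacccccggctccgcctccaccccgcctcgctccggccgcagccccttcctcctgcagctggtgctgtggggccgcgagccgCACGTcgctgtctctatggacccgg
Sema6b: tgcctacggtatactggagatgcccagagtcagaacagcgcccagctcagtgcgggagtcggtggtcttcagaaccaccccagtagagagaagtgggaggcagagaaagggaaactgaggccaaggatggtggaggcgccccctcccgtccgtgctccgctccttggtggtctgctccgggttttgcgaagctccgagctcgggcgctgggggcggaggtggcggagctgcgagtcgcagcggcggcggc
Efna3: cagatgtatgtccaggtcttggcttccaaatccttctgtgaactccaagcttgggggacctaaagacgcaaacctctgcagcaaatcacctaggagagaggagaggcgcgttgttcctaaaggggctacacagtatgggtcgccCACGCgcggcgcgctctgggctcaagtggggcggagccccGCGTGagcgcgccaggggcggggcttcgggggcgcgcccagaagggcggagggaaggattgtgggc
Efna1: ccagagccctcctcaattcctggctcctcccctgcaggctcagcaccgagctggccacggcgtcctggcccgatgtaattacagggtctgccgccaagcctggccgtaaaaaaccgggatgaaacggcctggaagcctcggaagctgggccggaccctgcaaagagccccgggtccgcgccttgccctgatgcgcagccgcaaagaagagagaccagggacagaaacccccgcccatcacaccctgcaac
Efna4: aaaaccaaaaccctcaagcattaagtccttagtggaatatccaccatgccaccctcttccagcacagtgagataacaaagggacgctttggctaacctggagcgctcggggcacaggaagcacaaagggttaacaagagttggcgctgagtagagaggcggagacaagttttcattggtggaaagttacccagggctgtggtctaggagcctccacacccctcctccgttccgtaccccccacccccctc
Sema4g and Efna3 each held 2 such matches, and Sema6b, Efna1 and Efna4 held 0. Among all 32841 promoter windows given by RefSeq, 38.6% held at least 1, and of the 39 guidance genes tested that have a window, 19 did (48.7%). The AT-rich words ATTAAA and ATCAAA, also searched on both strands, were in 0 of these 5 windows, in 4 of the 39 (10.3%) and in 20.9% of all windows. A match describes the letters and is no evidence of binding.

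The 3 probes for Arid3b itself read lower in each null pool than in any wild-type pool, on average at 39.2%, 30.8% and 30.2% of the wild-type mean. Null pool 4 kept the most signal on each probe, from 44.0% to 54.2%, and the other null pools ran from 25% to 36.1%. The labels do not say which part of the gene was deleted, so these probes may lie outside it. Pools 1 and 2 of both groups shared slide 1 and pools 3 and 4 shared slide 2, and on each slide the null pools took positions 3 and 4 and the wild-type pools positions 1 and 2, so that position and genotype cannot be told apart. Each array detected 59.9% to 64.1% of its probes well above background, and no probe was saturated. All signals below are log2 values relative to the array's own 75th percentile, so a value can be compared between pools but not between genes. Differences subtract wild type from null and carry the standard error (SE) or the 95% interval of the limma fit and the Benjamini-Hochberg adjusted p over 17100 genes.

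Most guidance genes differed little between Arid3b-null and wild-type embryos, and those that passed the test were ligands that were higher in the null pools. Of the 49 genes, 45 had a probe that cleared the background on 4 or more of the 8 arrays and were tested. The semaphorins Sema4g and Sema6b were called at a limma adjusted p under 0.05, both higher, and 43 genes were not. That is 4.44% of the 45, against 4.20% of all genes tested (2.85% higher and 1.35% lower). At an unadjusted p under 0.05 there were 9 guidance genes, 8 higher and 1 lower, or 20% against 20.7% of all genes. The null and wild-type pools did not overlap for 8 guidance genes, 7 higher and 1 lower, or 17.8% against 16.1% of all genes (8.08% higher and 8.06% lower). All 3 shares were close to those of the array as a whole.

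The median difference was 0.08 over the guidance genes and -0.01 over all genes tested. The middle 50% of the guidance genes lay between -0.10 and 0.17, and the extremes were -0.63 and 0.84. The mean was higher in the null pools for 31 of 45 (68.9%, against 48.7% of all genes) with the 75th percentile scaling, but for 15 of 45 with each array shifted to its median, where the median of the guidance genes was -0.01 and that of all genes -0.10. Such a scaling shifts all genes of an array alike, so the distance between these medians cannot change with it. By construction, the median of the guidance genes was 0.08 above that of all genes under both. That gap was 0.03 without wild-type pool 2, 0.05 without null pool 3 and -0.0045 with no filter on dim probes, where all 49 guidance genes and 27671 genes enter. The 95% interval stayed within 1.5-fold in either direction for 35 of the 43 genes not called, and within 2-fold for 42 of them, the exception being the receptor Epha3.

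**Figure D1:**
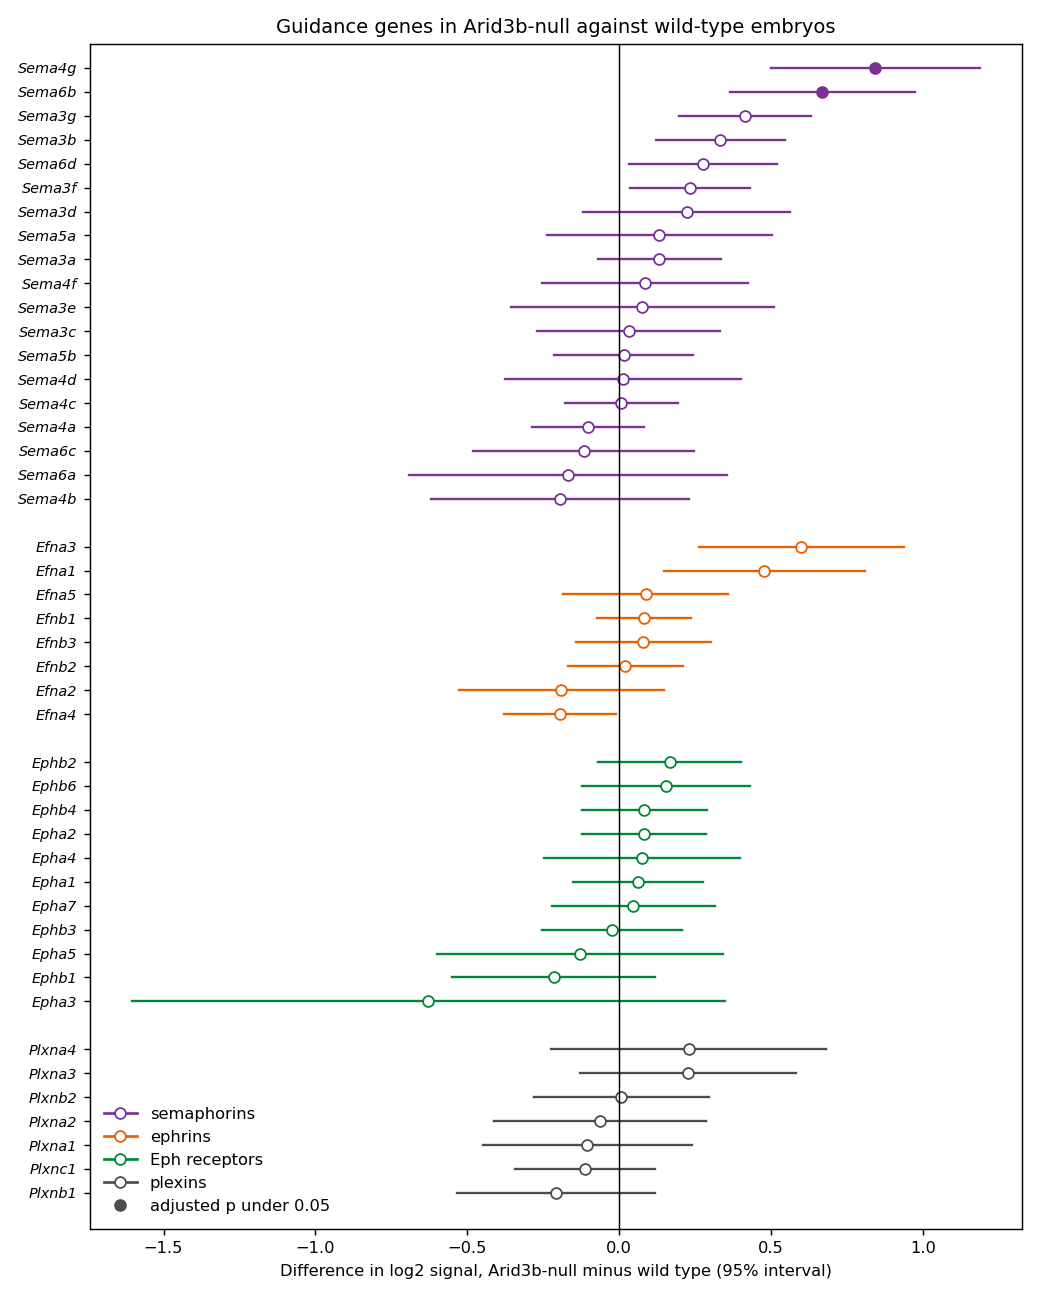
Difference in log2 signal between Arid3b-null and wild-type embryos for each of the 45 guidance genes tested, with the 95% interval of the limma fit, 4 pools per group. Filled points have an adjusted p under 0.05; they are Sema4g at 0.84 and Sema6b at 0.67. The intervals of Sema3g, Sema3b, Sema6d, Sema3f, Efna3 and Efna1 lie above 0, and that of Efna4 lies below it.

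Sema4g, a transmembrane class 4 semaphorin, showed the largest rise. Its signal was -2.16, -2.41, -2.37 and -2.47 in null pools 1 to 4, against -3.23, -3.46, -2.78 and -3.31 in wild-type pools 1 to 4. Every null pool was above every wild-type pool, and the gap was narrowest to wild-type pool 3. The difference was 0.84 ± 0.15 (SE, n = 4 pools per group), or 1.79-fold, with a limma adjusted p of 0.0279. It was 1.06 on slide 1 and 0.63 on slide 2. The single probe lies on chromosome 19 at chr19:44897025-44897084 (mm7).

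Sema6b, a transmembrane class 6 semaphorin that binds A-type plexins, was the other called gene. Its signal was -1.95, -1.76, -2.34 and -2.29 in null pools 1 to 4, against -2.78, -2.71, -2.73 and -2.79 in wild-type pools 1 to 4. The wild-type pools sat within a narrow band below every null pool, and the null pools of slide 1 were higher than those of slide 2. The difference was 0.67 ± 0.13 (SE, n = 4 per group), or 1.59-fold, with a limma adjusted p of 0.0365. It was 0.89 on slide 1 and 0.45 on slide 2. Its probe is at chr17:54281528-54281587 (mm7).

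The calls of these 2 genes were not secure. With normexp background correction the differences were 0.28 for Sema4g and 0.35 for Sema6b, and limma called neither. That setting called 0 of 17100 genes, and so not Arid3b itself, with 737 genes at an unadjusted limma p under 0.05. The missing calls are therefore not particular to this pair. Without a shift between arrays the limma adjusted p were 0.150 for Sema4g and 0.0768 for Sema6b, and without the filter on dim probes 0.0724 and 0.0902. Those fits called 0.918% and 0.593% of all genes, against 4.20% in the main fit. Sema6b alone also missed with a median shift (0.142) and with quantile normalization (0.0635). Leaving out 1 pool at a time, each was called in 2 of 8 fits, with limma adjusted p of 0.0170 to 0.0894 for Sema4g and 0.0373 to 0.109 for Sema6b. These fits have fewer arrays and called 0.544% to 3.67% of all genes, so calls were lost across the array. Sema4g kept its call without null pool 4 or wild-type pool 3 and Sema6b without null pool 2 or null pool 4. With a covariate for Y-linked transcripts, the differences were 0.83 for Sema4g and 0.62 for Sema6b, and the limma adjusted p were 0.186 and 0.230. That fit called 9 of 17100 genes. The Y-linked level, a mean log2 signal over 4 genes, was -2.22, -1.45, -2.34 and -1.25 in null pools 1 to 4. In wild-type pools 1 to 4 it was -8.18, -1.51, -3.10 and -7.77. Wild-type pools 1, 3 and 4 thus lay below every null pool.

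The secreted class 3 semaphorins had 7 tested members, of which limma called 0, or 3 (Sema3g, Sema3b and Sema3f) with the replicate block, and 3 had an unadjusted p under 0.05. Over all genes these shares were 4.20%, 13.7% and 20.7%. The median difference of the class 3 members was 0.22. Their mean was higher in the null pools for 7 of 7 with the 75th percentile scaling (48.7% of all genes), for 5 of 7 with a median shift and for 4 of 7 with normexp background correction. Sema3g, which acts through neuropilin-2 and is made by endothelial cells, came nearest to a call. Its signal was -0.07, -0.24, -0.17 and -0.44 in null pools 1 to 4, against -0.60, -0.67, -0.56 and -0.73 in wild-type pools 1 to 4. The groups were separate, with null pool 4 nearest to the wild-type pools. The difference was 0.41 ± 0.09 (SE, n = 4 per group) with a limma adjusted p of 0.0510, and of 0.0242 with the replicate block, which pairs pools of the same number.

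Sema3b and Sema3f, which repel axons through neuropilins, are measured by probes close together on chromosome 9. Sema3b had -0.52, -0.55, -0.73 and -0.72 in null pools 1 to 4, against -0.88, -0.90, -0.93 and -1.15 in wild-type pools 1 to 4. The difference was 0.33 ± 0.09 (SE) with a limma adjusted p of 0.0872, or 0.0318 with the replicate block, and the groups did not overlap. Sema3f, also separate, had -0.65, -0.61, -0.74 and -0.79 in null pools 1 to 4, against -0.81, -0.89, -0.92 and -1.10 in wild-type pools 1 to 4. Its difference was 0.23 ± 0.09 (SE, limma adjusted p 0.169, or 0.0489 with the replicate block), while its other kept probe gave -0.07. Sema3b has a single probe, at chr9:107328009-107328068 (mm7), and the brighter Sema3f probe is at chr9:107411904-107411963.

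Sema3c, which guides cardiac neural crest cells into the outflow tract together with its receptor plexin A2, and Sema3e, which shapes vessels through plexin D1, gave no detectable difference. Sema3c had -3.78, -3.56, -3.27 and -3.25 in null pools 1 to 4, against -3.55, -3.57, -3.53 and -3.34 in wild-type pools 1 to 4. Its difference of 0.03 had a 95% interval of -0.27 to 0.33. Sema3e had -1.93, -2.44, -1.73 and -1.63 in null pools 1 to 4, against -2.13, -2.24, -1.85 and -1.82 in wild-type pools 1 to 4. Its difference of 0.08 had an interval of -0.36 to 0.51. For both genes the pools overlapped widely and the sign depended on the scaling or on single pools. A probe named after a clone that RefSeq assigns to Sema3e was not counted among the members; it gave 0.20 ± 0.19 (SE). Plxnd1, the receptor of Sema3e, was not analysed here.

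After Sema4g and Sema6b, the membrane-bound semaphorin with the smallest p was Sema6d, which takes part in heart morphogenesis in the chick. It had 0.05, -0.18, 0.02 and -0.19 in null pools 1 to 4, against -0.29, -0.57, -0.19 and -0.36 in wild-type pools 1 to 4. Wild-type pool 3 reached the level of the lowest null pool, so the groups just touched. The difference was 0.28 ± 0.11 (SE, limma adjusted p 0.185, or 0.0470 with the replicate block). Of the remaining class 4 to 6 members, Sema4a, Sema4b, Sema6a and Sema6c had differences of -0.19 to -0.10, and Sema4c, Sema4d, Sema4f, Sema5a and Sema5b of 0.01 to 0.13. The class 3 members Sema3a and Sema3d had 0.13 and 0.22. None of these was called.

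**Figure D2:**
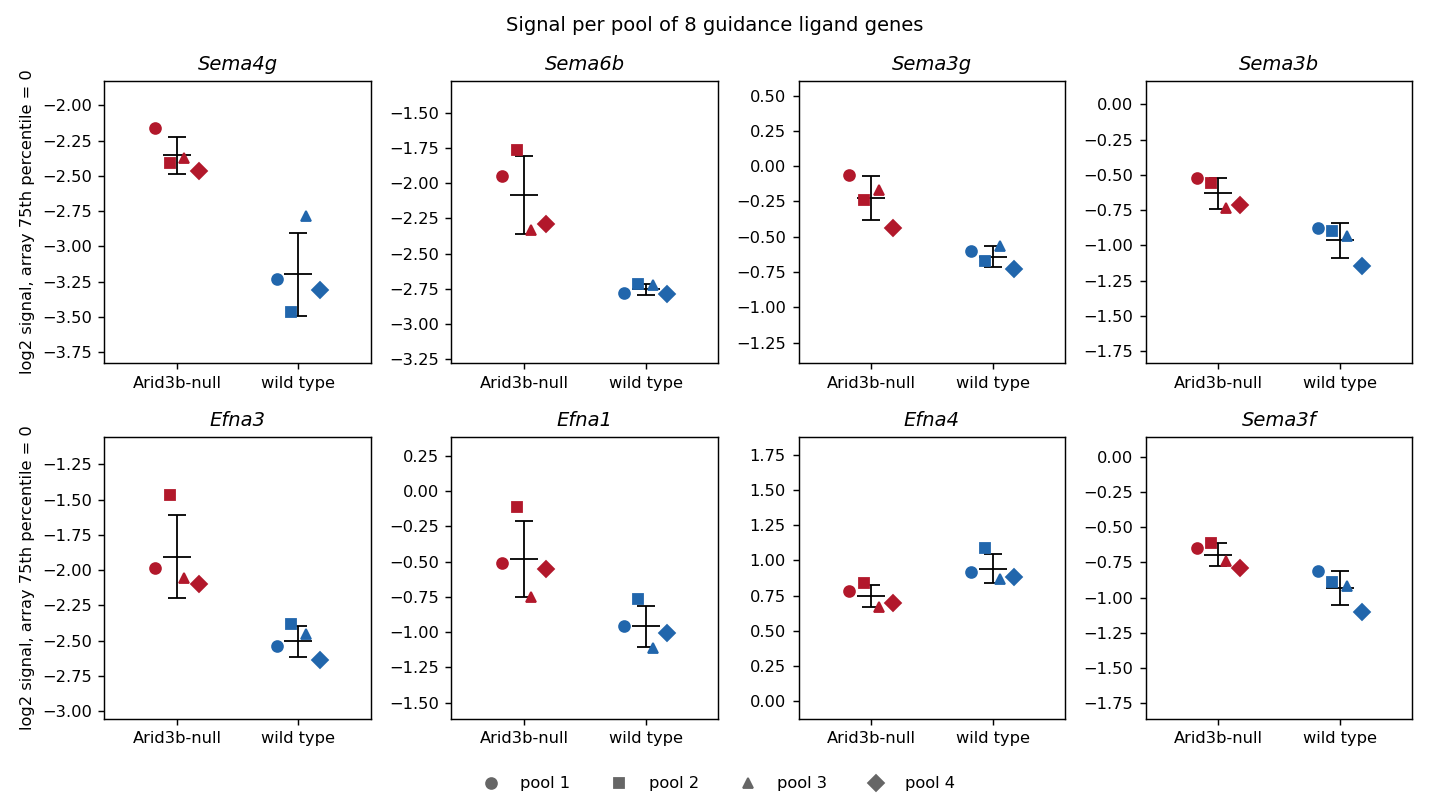
log2 signal per pool, relative to each array's 75th percentile, of the 8 ligand genes whose null and wild-type pools do not overlap, with the mean and SD of each group (n = 4); marker shapes give the pool number and every panel spans the same range. Null pools are higher in 7 panels and lower in that of Efna4, where they lie between 0.67 and 0.84 against 0.86 to 1.09 in wild type.

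Among the 8 ephrins limma called 0, or 2 (Efna1 and Efna3) with the replicate block, against 4.20% and 13.7% of all genes. There were 3 with an unadjusted p under 0.05 (37.5%, against 20.7% of all genes), 2 higher and 1 lower. All 3 are A-class ligands from the same stretch of chromosome 3. Efna3 had -1.99, -1.47, -2.06 and -2.10 in null pools 1 to 4, against -2.54, -2.38, -2.45 and -2.64 in wild-type pools 1 to 4. The groups were separate and null pool 2 stood highest. The difference was 0.60 ± 0.15 (SE, n = 4 per group), or 1.52-fold, with a limma adjusted p of 0.0627, or 0.0278 with the replicate block.

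Efna1, a ligand of EphA receptors like its neighbours, had -0.51, -0.11, -0.75 and -0.55 in null pools 1 to 4, against -0.96, -0.76, -1.12 and -1.0 in wild-type pools 1 to 4. Null pool 2 was again the highest, and the lowest null pool lay just above the highest wild-type pool. The difference was 0.48 ± 0.14 (SE), or 1.39-fold, with a limma adjusted p of 0.107, or 0.0225 with the replicate block.

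Efna4 went the other way. It had 0.79, 0.84, 0.67 and 0.70 in null pools 1 to 4, against 0.92, 1.09, 0.86 and 0.89 in wild-type pools 1 to 4. No null pool reached the lowest wild-type pool, although the difference was small, at -0.19 ± 0.08 (SE, limma adjusted p 0.219). The probes of the trio lie at chr3:89398658-89398717 for Efna1, chr3:89441310-89441369 for Efna3 and chr3:89460922-89460981 for Efna4 (mm7, minus strand). Each of the 3 genes has 1 probe on the array.

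The B-class ephrins, which signal into the cell that carries them as well as into the Eph-bearing cell, differed by 0.02 to 0.08. Efnb2, the ligand that marks arterial endothelium, had 2.78, 2.74, 3.01 and 2.88 in null pools 1 to 4, against 2.88, 2.80, 2.75 and 2.90 in wild-type pools 1 to 4. The difference was 0.02 with a 95% interval of -0.17 to 0.21. Its venous receptor Ephb4 had 0.64, 0.43, 0.68 and 0.65 in null pools 1 to 4, against 0.51, 0.36, 0.61 and 0.58 in wild-type pools 1 to 4. The difference was 0.08, with an interval of -0.12 to 0.29. Neither member of this artery and vein pair was separated by genotype, and each interval keeps within 1.5-fold. With a median shift both differences were negative, at -0.07 for Efnb2 and -0.01 for Ephb4.

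Efnb3 and Epha4, a ligand and receptor known in mouse for keeping axons from crossing the midline, were also close. Efnb3 had 2.65, 2.87, 2.58 and 2.49 in null pools 1 to 4, against 2.53, 2.69, 2.55 and 2.50 in wild-type pools 1 to 4. Epha4, which is expressed in rhombomeres, had 1.74, 1.42, 1.99 and 1.82 in null pools 1 to 4, against 1.70, 1.41, 1.81 and 1.76 in wild-type pools 1 to 4. The differences were 0.08 (95% interval -0.14 to 0.30) and 0.08 (-0.25 to 0.40), and both were negative with a median shift. Efnb1, Efna5 and Efna2 had differences of 0.08, 0.09 and -0.19 and were not called.

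No Eph receptor was called by limma, and 0 of the 11 tested had an unadjusted p under 0.05 or separate groups (20.7% and 16.1% of all genes). The 3 with the smallest p were Ephb2, Ephb1 and Epha3. Ephb2, a receptor of B-class ephrins, had 2.6, 2.35, 2.37 and 2.15 in null pools 1 to 4, against 2.29, 2.17, 2.23 and 2.11 in wild-type pools 1 to 4. The difference was 0.17 ± 0.10 (SE, limma adjusted p 0.421), with the pools overlapping.

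Ephb1 is on chromosome 9, as are Arid3b, Sema3b, Sema3f and Plxnb1. It had -1.0, -1.33, -0.83 and -0.83 in null pools 1 to 4, against -0.71, -1.07, -0.73 and -0.62 in wild-type pools 1 to 4. The difference was -0.22 ± 0.15 (SE, limma adjusted p 0.466). In every numbered pair the null pool was the lower, while the groups overlapped through wild-type pool 2.

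Epha3, a receptor of A-class ephrins that takes part in heart cushion development in mouse, was the exception in spread. It had -3.33, -5.26, -5.26 and -5.24 in null pools 1 to 4, against -4.01, -3.99, -4.23 and -4.34 in wild-type pools 1 to 4. Null pools 2 to 4 lay below every wild-type pool and null pool 1 above them all. The difference was -0.63 ± 0.42 (SE), with a 95% interval of -1.60 to 0.35 and a limma adjusted p of 0.468. Without null pool 1 it was -1.11 and called lower, with an adjusted p of 0.0122. The signal was dim, well above background in 3 of 4 null pools and 4 of 4 wild-type pools, and 2 further Epha3 probes were dim on most arrays. Ephb6, Epha2, Epha1, Epha7, Ephb3 and Epha5 had differences of -0.13 to 0.15. Epha6 and Epha10 were not well above background on any array, and Epha8 was so in 0 null and 3 wild-type pools, too few arrays to be tested.

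The plexins, the receptors through which semaphorins act on the cytoskeleton, also had 0 calls by limma. Of the 7 tested, 0 had an unadjusted p under 0.05 or separate groups (20.7% and 16.1% of all genes). Plxna3 had -0.11, -0.72, -0.10 and -0.20 in null pools 1 to 4, against -0.52, -0.71, -0.32 and -0.48 in wild-type pools 1 to 4. Null pools 1, 3 and 4 lay above every wild-type pool and null pool 2 was level with the lowest of them, for a difference of 0.23 ± 0.15 (SE, limma adjusted p 0.470). Plxnb1, a receptor of class 4 semaphorins, had 1.12, 0.43, 0.89 and 0.77 in null pools 1 to 4, against 1.14, 1.01, 0.95 and 0.93 in wild-type pools 1 to 4. Its difference was -0.21 ± 0.14 (SE, adjusted p 0.475), led by null pool 2.

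Plxna4, a receptor of class 3 and class 6 semaphorins, was read differently by its probes. On the brighter one it had 0.09, -0.49, 0.07 and -0.32 in null pools 1 to 4, against -0.26, -0.86, -0.09 and -0.36 in wild-type pools 1 to 4, a difference of 0.23 ± 0.20 (SE, limma adjusted p 0.581). On the dimmer one it had -1.81, -2.27, -2.12 and -2.16 in null pools 1 to 4, against -2.53, -2.77, -2.55 and -3.02 in wild-type pools 1 to 4. There the groups were separate and the difference was 0.63 ± 0.14 (SE, limma adjusted p 0.0545 over the 25555 kept probes). Of the 70 guidance probes kept, limma called 2, those of Sema4g and Sema6b, with 3.46% called over all kept probes. The dimmer Plxna4 probe is named after its values were seen.

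Plxna2, the partner of Sema3c, had 1.85, 1.25, 1.86 and 1.70 in null pools 1 to 4, against 1.79, 1.5, 1.87 and 1.74 in wild-type pools 1 to 4. The difference was -0.06, with a 95% interval of -0.41 to 0.29, and the pools overlapped throughout. Plxna1, Plxnc1 and Plxnb2 had differences of -0.11, -0.11 and 0.01. Plxnb3 was well above background in 1 null and 1 wild-type pool and was not tested.

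More than 1 kept probe measured 23 of the guidance genes, and for 17 the probes lay on the same side of 0, and the other 22 genes rested on a single probe. No gene had probes on opposite sides with both at an unadjusted p under 0.05. The widest gaps were at dim probes. The second Sema3c probe gave 0.93 ± 0.75 (SE), the second Plxnc1 probe 0.87 ± 0.92, the second Sema6d probe 0.68 ± 0.25 and the second Sema5a probe 0.62 ± 0.19, beside 0.03, -0.11, 0.28 and 0.13 on the brightest probes of those genes. Sema4g, Sema6b, Sema3g, Sema3b, Efna1, Efna3 and Efna4 each rested on 1 probe, so that for them no second reading exists.

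**Figure D3:**
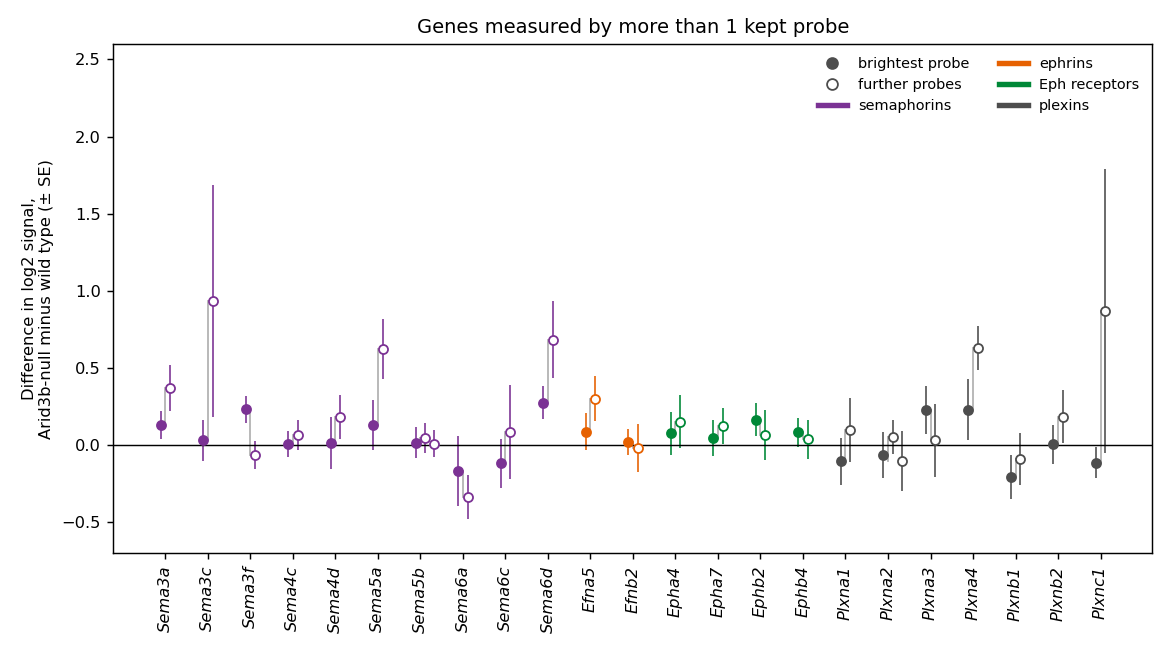
Difference in log2 signal, null minus wild type, for every kept probe of the 23 guidance genes that have more than 1, with the SE of the limma fit; filled points are the brightest probe, which stands for the gene in the text, and grey lines join probes of a gene. Probes lie close together for most genes and far apart for Sema3c, Plxnc1, Sema6d, Sema5a and Plxna4.

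Deviations of pools with the same number correlated, but only at 0.0981 for numbers 3 and 4 once slide means were removed. The labels name no pairs. A fit with the number as a replicate block was made as well. It called 8 of the 45 guidance genes, all higher: Sema4g, Sema6b, Sema3g, Sema3b, Sema3f, Sema6d, Efna3 and Efna1. That is 17.8% of them, against 13.7% of all genes under the same fit. With slide as the block 6 were called, the same without Sema3f and Sema6d, or 13.3% against 8.01% of all genes. Under the replicate block the limma adjusted p were 0.0251 for Sema4g and 0.0291 for Sema6b. All 9 guidance genes with an unadjusted p under 0.05 had the same sign on both slides, as had 99.97% of such genes on the whole array, and of all 45 guidance genes 34 did.

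**Figure D4:**
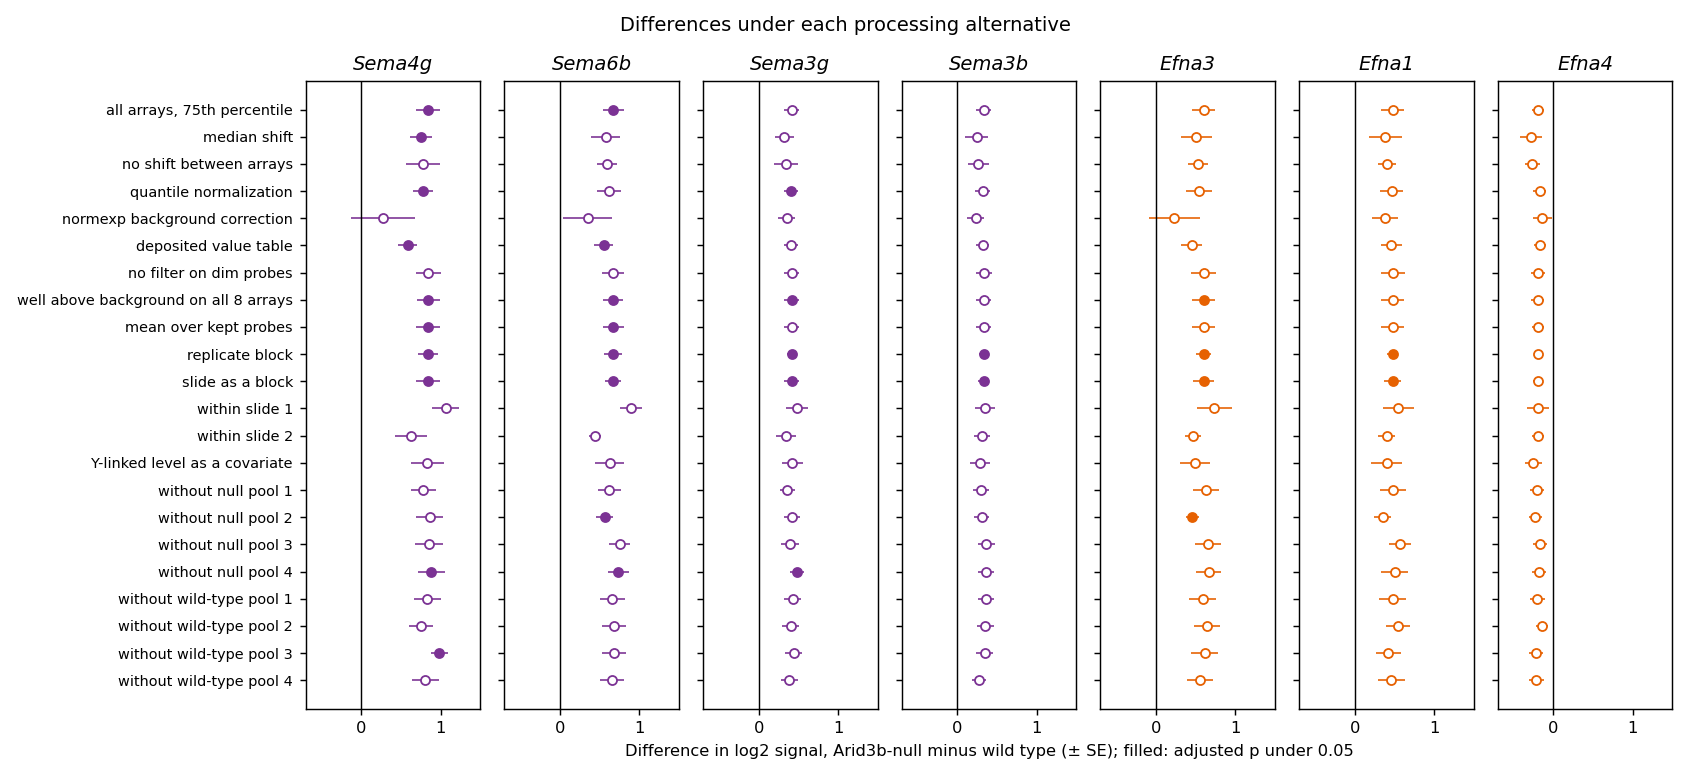
Difference in log2 signal, null minus wild type, with its SE, for 7 ligand genes under each processing alternative; filled points have an adjusted p under 0.05. Every difference keeps its sign, the calls of Sema4g and Sema6b come and go between alternatives, and Sema3b and Efna1 are called with a replicate block or slide as a block.

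The partners of these ligands and receptors were read from lists of 86 genes, of which 79 were tested. Limma called 4, 2 higher and 2 lower, or 5.06% against 4.20% of all genes. In the list of semaphorin co-receptors and other semaphorins, which holds Sema7a beside the co-receptors, 6 of 7 were tested and 0 were called. There were 2 at an unadjusted p under 0.05 (33.3%, against 20.7% of all genes), and the median was 0.27. Plxdc2, a plexin-domain protein, had the smallest p in that list, with a difference of 0.28 ± 0.08 (SE, limma adjusted p 0.105). The neuropilins Nrp1 and Nrp2, which bind class 3 semaphorins, had differences of 0.02 (95% interval -0.23 to 0.27) and 0.26 (-0.10 to 0.62).

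Of 48 tested cytoplasmic effectors, 1 was called higher and 2 lower (6.25%), with a median of -0.01. Dpysl4, of the collapsin response mediator family that relays semaphorin signals to microtubules, had 1.26, 0.74, 1.09 and 1.12 in null pools 1 to 4, against 1.51, 1.64, 1.62 and 1.62 in wild-type pools 1 to 4. All null pools were below all wild-type pools, and the difference was -0.54 ± 0.11 (SE, limma adjusted p 0.0414). Farp2, an exchange factor bound by plexin A1, was lower, with a difference of -0.35 ± 0.08 (SE, adjusted p 0.0444), with null pools between -2.26 and -2.04 and wild-type pools between -1.84 and -1.74. Grip1, a scaffold that binds B-class ephrins, was higher by 0.31 ± 0.07 (SE, adjusted p 0.0499), with null pools between 0.17 and 0.30 and wild-type pools between -0.12 and 0.04. Leaving out 1 pool at a time, Dpysl4 was called in 2 of 8 fits and Farp2 and Grip1 in 0 of 8. Those fits called 0.544% to 3.67% of all genes.

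In the other guidance families 25 of 30 genes were tested and 1 was called (4.00%). This was Robo2, a receptor of Slit ligands, with -2.13, -2.23, -2.15 and -2.07 in null pools 1 to 4, against -2.82, -2.78, -2.83 and -3.01 in wild-type pools 1 to 4. The groups were far apart compared with their spread, and the difference was 0.72 ± 0.08 (SE, limma adjusted p 0.00525), called in 8 of 8 fits that left out a pool. The 3 other kept Robo2 probes gave 0.08, 0.11 and 0.21, and the mean over its probes was 0.28 with an adjusted p of 0.242, so the call belongs to 1 probe. With normexp background correction that probe gave 0.26 and was not called, and no other gene was called in that setting either.

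Some marker lists of cell types and responses differed between the groups as well. The lists were chosen with earlier results of these data known. Over all genes tested, limma called 2.85% higher and 1.35% lower. Summed over the list, the linear level of 4 neural tube genes was 12.8 to 16.2 in the null pools and 17.4 to 19.2 in the wild-type pools, with 0 called by limma. That of 7 early neuron genes was 4.71 to 5.44 in the null pools and 5.65 to 7.72 in the wild-type pools, with 1 called lower. Heart genes summed to 114 to 134 in the null pools and 98.0 to 107 in the wild-type pools, and the 8 endothelial genes to 17.0 to 18.6 in the null pools and 17.7 to 18.5 in the wild-type pools, with 0 called in either list. Neural crest genes gave 5.10 to 6.31 in the null pools and 4.84 to 5.51 in the wild-type pools. Somite genes gave 14.0 to 20.1 in the null pools and 15.9 to 20.1 in the wild-type pools.

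The hypoxia and stress response lists were likewise chosen with earlier results known, and 2.85% of all genes were called higher. Of 10 hypoxia response genes, 8 were called higher, with a median difference of 1.26. That list summed to 112 to 130 in the null pools and 71.2 to 86.1 in the wild-type pools. Of 6 stress response genes 5 were called higher, with a median difference of 1.92 and sums of 11.8 to 56.1 in the null pools and 23.3 to 26.4 in the wild-type pools. A missing value adds nothing to a sum, and whether one lowers the 11.8 was not looked up. Yolk sac genes summed to 11.1 to 19.8 in the null pools and 11.5 to 21.1 in the wild-type pools. Primitive erythroid genes summed to 215 to 375 in the null pools and 262 to 417 in the wild-type pools. Of these 6 genes 1 was called lower, against 1.35% of all genes. Of 4 trophoblast markers 2 were tested and 0 called, with Tpbpa and Gcm1 too dim to test. All 4, the dim ones included, summed to 1.10 to 2.52 in the null pools and 1.07 to 2.28 in the wild-type pools. Of the decidua markers, Dcn alone was tested and was called higher, while Prl8a2 and Prl3c1 were too dim to test. The decidua list thus rests on 1 gene, and whether the pools held maternal tissue was not tested. The part of these lists in the differences of the guidance genes was not tested.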

How the data were processed

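Per the file headers, Feature Extraction 9.5.3.1 read the 1-colour Agilent arrays. The deposited processed intensity is the Cy3 signal after background subtraction and detrending within each array, per the file headers. The deposited mean and background intensity entered only the normexp alternative (offset 50). The deposited value table holds log2 values of 27108 probes, all matched, and correlates with the log2 scanner values at no less than 0.988 per array. Its medians were 9.44 to 9.47. For pool 1, the only number checked, its null-minus-wild-type differences correlated at 0.920 with those of the quantile-normalized scanner values. Its scale (slope 0.893 against the same values in wild-type pool 1, over kept probes) and its processing are not given in the sources used here.

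Control spots (1639 of 45018) and outlier spots (87 to 175 per array) were left out, spots of a probe were averaged on the log2 scale, and each array's 75th percentile (1280 to 1703) was subtracted. A probe was kept where 4 or more of 8 arrays put it well above background (25555; 70 of the 85 guidance probes), and the brightest stood for each gene. Names were updated through RefSeq (GRCm38.p6): 22951 probes by accession, 6659 by symbol, 3109 by an older name, while 8455 kept the file's name. Guidance probes kept theirs. Probe coordinates are those of the files (mm7), and since the builds differ, the exon or UTR a probe lies in was not looked up. Summed marker levels are 2 to the log2 value, added over all genes of a list on the array, dim ones included. A value missing in a pool adds nothing to its sum.

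Genotype was the only term of the limma 3.58.1 fit (R 4.3.3; lmFit, eBayes), with Benjamini-Hochberg adjustment over all genes, and a call is an adjusted p under 0.05. The members and lists were chosen with earlier results of these data known. Values per pool are given for called members, those with an unadjusted p under 0.01, the 3 smallest p of each family, and 4 known ligand and receptor pairs; of partner lists, called genes and the smallest p. Sema3f and Sema6d were added after their values were seen.

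Numbers in the labels were checked as pairs. Deviations from the group mean correlated at 0.557, 0.635, 0.522 and 0.426 across genes for numbers 1 to 4. The best match of each number was the same number. With slide means removed the values were 0.518, 0.518, 0.0981 and 0.0981. Pools of a group on the same slide then mirror each other, so numbers that share a slide give the same value by construction. For numbers 3 and 4 the pairing beyond the slide was weak, and the replicate-block results rest on it. The values given are from the fit without the block, unless the replicate block is named. The steps were tested on simulated data. The number of arrays limits the precision.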

Additional observations from a re-analysis of the deposited data

Results flagged for a closer look

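In 5 of 90 groups of 4 pools, 1 pool stood apart from the other 3 by Dixon's criterion at the 95% level; chance alone gives about 4.5 of 90. Epha3 in null pool 1 was at -3.33, with the other null pools between -5.26 and -5.24, and its part in the Epha3 result is given above. Ephb3, an ephrin-B receptor, was at 2.39 in null pool 1 and between 2.10 and 2.14 in the other null pools. Plxna3 was at -0.72 in null pool 2, against -0.20 to -0.10 in the other null pools. Sema3d, a secreted semaphorin, was at -4.54 in wild-type pool 2 and between -4.28 and -4.23 in the other wild-type pools. Sema3c was at -3.34 in wild-type pool 4, against -3.57 to -3.53 in the other wild-type pools.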

How the results depend on the processing

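The 2 guidance calls became 8 with the replicate block, 6 with slide as a block, 4 of 44 with probes well above background on all 8 arrays (9.09%, against 5.36% of all genes), 1 with a median shift, and 0 with no shift, normexp, no filter on dim probes, either slide alone or the Y-linked covariate (limma; 5, 2, 9, 6, 9 and 7 genes at an unadjusted p under 0.05, slide 1 before slide 2). Leaving out a pool gave 0 to 3. The 4 partner calls became 8 with the replicate block, 2 with a median shift or the mean over kept probes, 1 with no filter, and 0 with no shift, normexp, either slide alone or the Y-linked covariate (8, 4, 5, 12 and 13 at an unadjusted p under 0.05), and 1 to 3 without a pool. The median difference of 0.08 was -0.01 with a median shift, 0.005 with no shift (23 of 45 higher), 0.05 with normexp, 0.04 within slide 1 and 0.02 to 0.09 without a pool. Over all genes, 718 calls became 204 (52.0% higher, against 67.8%) with a median shift, 157 (79.6%) with no shift, 164 (83.5%) with no filter, 463 with the value table, 837 with probes well above background on all 8 arrays, 2343 (56.8%) with the replicate block, 1370 with slide as a block, 9 with the Y-linked covariate, 93 to 628 without a pool, and 0 with normexp or within slide 1 or slide 2 (limma; 737, 1881 and 2861 at an unadjusted p under 0.05); the cause was not tested, except that fewer arrays enter the fits without a pool or within a slide.

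Of the 45 guidance genes, 16 turned sign with a median shift (none over 0.09 in size), 8 with no shift, 7 with normexp, among them Sema3d from the largest difference (0.22), 3 with quantile normalization, 4 with the value table, 1 with the mean over kept probes, 6 within slide 1, 5 within slide 2, 2 with the Y-linked covariate and 1 to 6 without a pool. Of the genes whose values are given per pool, a median shift gave -0.0087 for Ephb4, -0.0117 for Efnb3, -0.0149 for Epha4, -0.0147 for Sema3e, -0.0713 for Efnb2 and -0.0598 for Sema3c. With no shift they were -0.0513 for Efnb2 and -0.0399 for Sema3c, and Sema3c was -0.0395 with quantile normalization and -0.038 with the value table. Normexp gave -0.0719 for Sema3e and -0.228 for Sema3c, and slide 1 alone gave -0.0010, -0.0771 and -0.110 for Sema3e, Efnb2 and Sema3c. Plxna2 was 0.0415 with the Y-linked covariate. Without a pool, the differences ran from -0.0106 to 0.18 for Epha4, -0.14 to 0.0741 for Plxna2, -0.0253 to 0.25 for Sema3e, -0.0316 to 0.056 for Efnb2 and -0.0395 to 0.14 for Sema3c.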
